A study of Mus musculus with 5 samples.

Results

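Antigen receptor genes are assembled in developing lymphocytes from arrays of separate gene segments. Described here are the EBF1 binding sites that fell inside 5 of these arrays, namely the immunoglobulin heavy chain array (Igh), the lambda light chain array (Igl) and the T-cell receptor arrays alpha/delta (Tra/Trd), beta (Trb) and gamma (Trg). The segment genes were chosen by symbol from RefSeq annotation of GRCm38, and a site was taken as a member when its centre lay between the outermost segment genes of an array. This gave 26 sites, of 7494 in the deposited list, among 479 segment genes. The genes comprised 364 variable (V), 20 diversity (D), 83 joining (J) and 12 constant (C) segments, and 116 of them were typed as pseudogenes.

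The list was deposited with 1 ChIP-seq library of pro-B cells, an early stage of the B lineage. Fetal liver cells of genotype Ebf1-/- had been transduced with wild-type EBF1, and formaldehyde-crosslinked chromatin was precipitated with an antibody to EBF1. The other 4 libraries of the series (EBF1 ChIP with an EBF1 form called YmA, BRG1 ChIP with YmA, and an input for each antibody) were not analysed here. The cells therefore carried EBF1 only as transduced protein, there is no replicate, and no occupancy was compared between libraries. Each site is a 300-bp interval with a class label given by the authors, YmA-ind, CTD-ind or YmA-dep. No source at hand says how the classes were made, or which libraries the list and its classes draw on. The file holds no height or score, so the depth behind a site is unknown. The file holds sites and no expression, so the labelled cell type could not be checked against marker genes.

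EBF1 is a transcription factor required for the B lineage. In pro-B cells the Igh array is rearranged first: a D segment is joined to a J segment, and a V segment, drawn from a region that spans most of the array, is then joined to DJ. Use of the V segments far from the D and J segments is known to need contraction of the locus and the factor PAX5. The T-cell receptor arrays are rearranged in T-lineage cells, and the lambda array at a later B-cell stage.

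Among the sites of the Igh array, 2 covered the starts of long non-coding RNA genes, Gm30948 and Gm30996, and these were the only members for which RefSeq promoter sequence was at hand. The windows below run from 250 bases before to 50 after each gene's start, on the + strand of GRCm38.p6. Gm40900 is added because its window holds the same sequence and no site. Capitals mark each match to the E-box CAGGTG, searched on both strands.
Gm30948 (chr12:115262401-115262700): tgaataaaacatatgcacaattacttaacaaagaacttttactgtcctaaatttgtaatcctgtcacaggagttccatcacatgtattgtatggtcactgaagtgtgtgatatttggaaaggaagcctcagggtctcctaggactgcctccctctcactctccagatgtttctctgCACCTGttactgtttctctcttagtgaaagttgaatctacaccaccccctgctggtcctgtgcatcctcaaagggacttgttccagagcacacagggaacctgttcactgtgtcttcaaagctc
Gm30996 (chr12:115407364-115407663): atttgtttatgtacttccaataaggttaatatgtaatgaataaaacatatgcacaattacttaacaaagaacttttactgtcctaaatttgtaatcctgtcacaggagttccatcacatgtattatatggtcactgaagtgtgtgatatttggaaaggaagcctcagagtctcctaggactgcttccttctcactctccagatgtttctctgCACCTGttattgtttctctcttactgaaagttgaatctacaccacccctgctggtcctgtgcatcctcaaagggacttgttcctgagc
Gm40900 (chr12:115703580-115703879): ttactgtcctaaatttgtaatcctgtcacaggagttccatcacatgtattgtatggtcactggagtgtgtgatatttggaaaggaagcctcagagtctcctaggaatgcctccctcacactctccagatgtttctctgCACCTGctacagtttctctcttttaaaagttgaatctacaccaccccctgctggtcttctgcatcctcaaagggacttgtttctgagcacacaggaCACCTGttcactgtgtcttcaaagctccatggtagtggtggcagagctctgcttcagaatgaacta

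These windows are close copies of 1 sequence. Gm30948 and Gm30996 were 97.0% identical over 265 aligned positions, with 7 mismatches and 1 gap base. Gm40900 was 94.3% identical to Gm30948 over 262 positions and 93.0% identical to Gm30996 over 227. Of 32851 promoter windows in the table, these 3 alone shared a run of 20 bases with Gm30948 or Gm30996 on either strand. A YmA-ind site covered 259 of the 300 bases at Gm30948, centred 59 bp before the gene's start. Another YmA-ind site covered 289 of the 300 bases at Gm30996, centred 89 bp before the start. At Gm40900 the nearest site lay 67.4 kb away. Reads from copies this alike are hard to place, and the authors' treatment of reads with several matches is not stated in any source at hand. Whether that has a part in the presence of sites at Gm30948 and Gm30996, or in their absence at Gm40900, was not tested.

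EBF1 is known to bind a palindrome of the form TCCCNNGGGA. No exact match was found in the windows of Gm30948, Gm30996 or Gm40900, nor any with 1 mismatch, nor any to the inner part CCCNNGGG. Of all promoter windows, 0.904% held the full palindrome, 16.5% held it with up to 1 mismatch and 13.7% held the inner part. Of the 436 windows anywhere in the genome that contained the centre of a site, the shares were 16.5%, 70.2% and 58.0%. The E-box CAGGTG, the kind of sequence bound by E proteins such as E2A, occurred once at Gm30948, once at Gm30996 and at 2 positions at Gm40900. It was in 20.2% of all windows and in 19.3% of the 436 that contained the centre of a site. The octamer ATGCAAAT, known from V segment promoters, was in none of the 3 windows and in 1.74% of all. The missing letters say only that they are not in these windows, which leave part of each site uncovered.

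The Igh array had the most sites. Its 215 segment genes span 2.75 Mb on chromosome 12 (113256204 to 116009954), from the constant gene Igha at the lower end to Ighv1-86 at the upper end. It held 14 sites, 5.08 per Mb (95% Poisson interval 2.78 to 8.53). Its chromosome as a whole held 2.45 per Mb, so that the array stood 2.07 times above it and its interval did not reach the chromosome's value. The interval did include the density over all chromosomes of the list, 2.92 per Mb. Intervals here and below cover counting error only.

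The other arrays held few sites. Tra/Trd, 1.79 Mb on chromosome 14 (52427967 to 54218842), held 7 sites, or 3.91 per Mb (1.57 to 8.05) against 2.23 for the chromosome. Trb, 0.667 Mb on chromosome 6 (40891296 to 41558371), held 4 sites, or 6.00 per Mb (1.63 to 15.4) against 2.78. Igl, 0.199 Mb on chromosome 16 (19061752 to 19260844), held 1 site against 0.534 at the density of its chromosome. Trg, 0.162 Mb on chromosome 13 (19178042 to 19340454), held none, and a count of 0 is read as allowing up to 3 sites there. For none of these 4 did the interval exclude the density of its chromosome. The kappa light chain array (Igk), given for comparison, held 57 sites in 3.17 Mb, or 18.0 per Mb (13.6 to 23.3), and its interval lay above those of Igh and Tra/Trd.

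**Figure D1:**
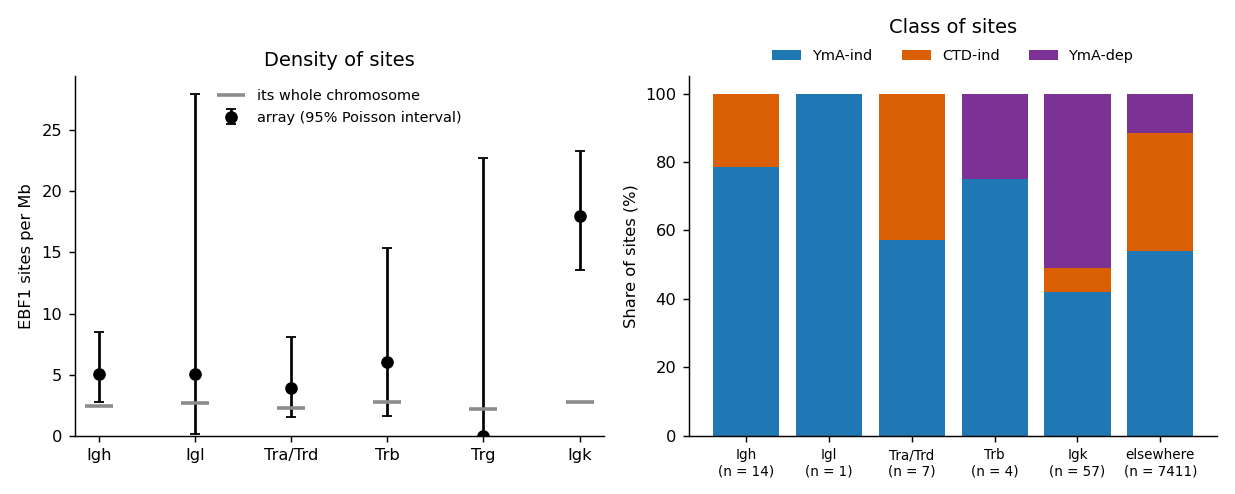
Left, EBF1 sites per Mb of each array (points, with 95% Poisson intervals) and of its whole chromosome (grey bars). Right, share of sites in each class, with the number of sites in parentheses. Igh at 5.08 per Mb sits between its chromosome (2.45) and Igk (18.0), and Igk is the array with most YmA-dep sites (29 of 57).

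Most sites in the 5 arrays were of the YmA-ind class. Of the 26 sites, 19 were YmA-ind (73.1%, 95% Clopper-Pearson interval 52.2 to 88.4%), 6 were CTD-ind (23.1%, 8.97 to 43.6%) and 1 was YmA-dep (3.85%, 0.0973 to 19.6%). In the list outside these arrays and Igk the shares were 54.1%, 34.3% and 11.6%, all within those intervals. The class make-up of the 26 was therefore not distinguishable from that of the other sites at this number. In Igh, 11 sites had the YmA-ind label, 3 had the CTD-ind label and none was YmA-dep. A count of 0 is read here as allowing up to 3 counts, which in 14 sites is a share of up to 21.4%. In Tra/Trd, 4 were YmA-ind and 3 CTD-ind. In Trb, 3 were YmA-ind and 1 was YmA-dep. In Igk, 29 of 57 were YmA-dep (50.9%, 37.3 to 64.4%), an interval that lies above that of the 26 sites.

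Within Igh all 14 sites lay in the V part. The D, J and constant segments, 32 genes over 0.271 Mb, had no site, and neither did the stretch above them up to the first V segments. The longest stretch without a site ran 552 kb from the lower end of Igha to the site at Ighv2-7 and held 56 segment genes that no site overlaps: 8 constant, 4 J, 20 D and 24 V. It includes Ighm, the constant gene of the mu chain that pro-B cells assemble, and 24 of the proximal V segments, those nearest to D. Other Ighv2 and Ighv5 genes lie beyond it, among them Ighv2-7, which a site overlaps. The next in length were 384 kb between the sites nearest to Ighv1-26 and Ighv8-6, with 31 such V segments, and 257 kb between those nearest to Ighv2-7 and Ighv16-1, with 18. Neighbouring Igh sites lay 49.8 to 384 kb apart (median 154 kb). In Igk the median was 35.4 kb.

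**Figure D2:**
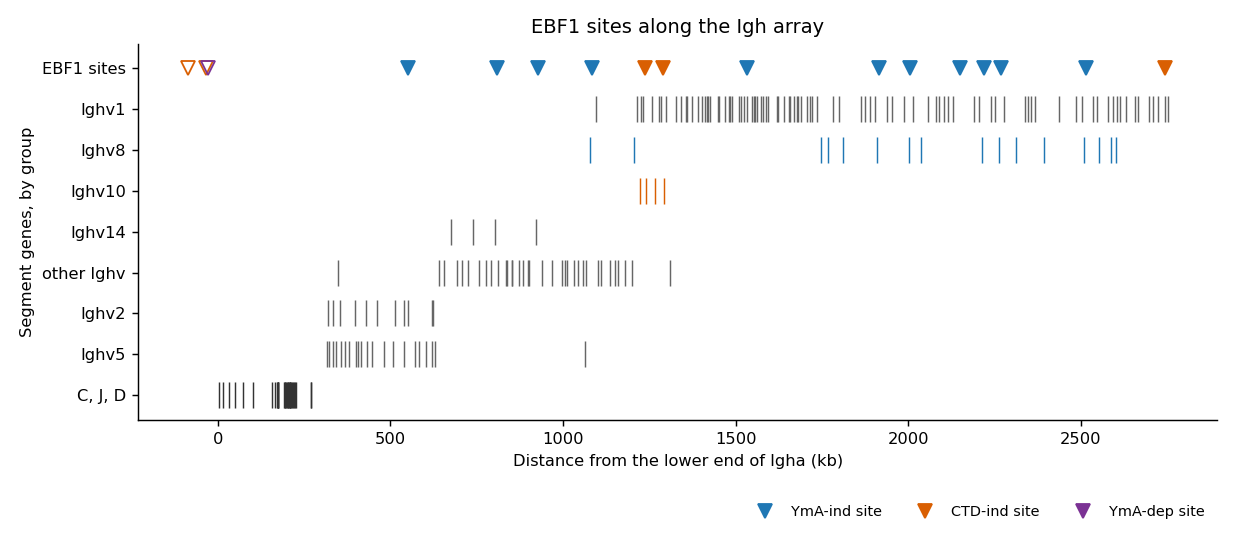
Segment genes of the Igh array (ticks, in rows by V family or type) and EBF1 sites (triangles, coloured by class), by distance in kb from the lower end of Igha. Open triangles lie within 100 kb outside the array. The 14 sites inside it begin 551.6 kb from Igha, beyond all C, J and D segments.

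A repeated arrangement was seen at the Ighv8 family, also known as VH3609, whose members are scattered through the distal part of the array, far from D. Of 16 Ighv8 genes, 6 had a site within 10 kb (37.5%), where 15.1% of all annotated genes did. The excess rests on that distance: within 5 kb 2 of the 16 had one, where 11.9% of all genes did. All 6 sites were YmA-ind, a class that holds 54.1% of the whole list and 11 of the 14 Igh sites. All lay, as did 9 of the 14 Igh sites with these 6 included, on the side away from the constant genes. Ighv genes are known to be transcribed toward the constant genes, so this is the upstream side. The distances were 7.02 kb at Ighv8-1, 5.79 kb at Ighv8-6, 4.16 kb at Ighv8-7, 5.82 kb at Ighv8-9, 4.58 kb at Ighv8-10 and 5.62 kb at Ighv8-13. Ighv8-1, Ighv8-7 and Ighv8-10 are pseudogenes, and the other 3 of the 6 are not. For the other 10 genes the next site on that side was 31.2 kb (Ighv8-2) to 204 kb (Ighv8-11) away. How reads with several matches were placed among the Ighv8 copies is not stated in any source at hand, and its part in which of the 16 genes carry a site was not tested. No Ighv8 gene had a site within 10 kb on the side toward the constant genes.

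Other annotated genes near these sites differed between the family members. At Ighv8-9, Ighv8-10 and Ighv8-13 the nearest was a pseudogene, Gm9236 at 2.06 kb, Gm18340 at 2.13 kb and Gm9251 at 2.01 kb. At Ighv8-6 it was the pseudogene Gm9227 at 4.10 kb, and at Ighv8-1 the nearest, Gm18551, was 73.6 kb away. The sequences of these places were not compared. The site at Ighv8-7 (115262442 to 115262741) is the one at the start of Gm30948 shown above, and it lay 5.83 kb from Ighv1-57. The site at Gm30996 (115407375 to 115407674) had no Ighv8 gene near it: its nearest segment gene was Ighv1-62-1, 20.5 kb away. Both non-coding genes lie on the + strand and so run against the sense known for the Ighv genes. Elements named PAIR, repeats bound by PAX5, are known to lie upstream of VH3609 genes and to give antisense transcripts in pro-B cells. The gene table does not mark them, and whether the sites fall in them was not tested.

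**Figure D3:**
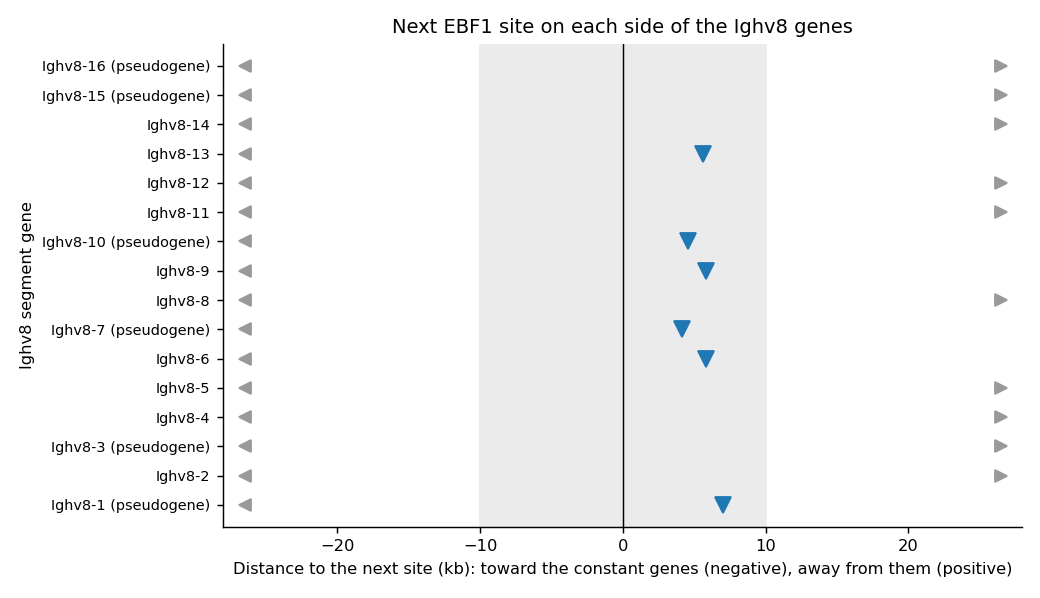
Distance in kb from each of the 16 Ighv8 genes to the next EBF1 site on the side away from the constant genes (positive) and toward them (negative), with genes in order along the array. Blue triangles are YmA-ind sites, grey arrows stand for a next site beyond 25 kb, and the grey band marks 10 kb; 6 genes have a site 4.16 to 7.02 kb on the positive side and none has one on the negative side within the band.

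A second repeated arrangement was seen at the small Ighv10 family, with sites of the other class. CTD-ind sites lay on the side toward the constant genes of the pseudogenes Ighv10-2 (114493607 to 114493906, 2.25 kb) and Ighv10-4 (114544967 to 114545266, 2.14 kb). On their other flank stood Ighv1-4 and Ighv1-7, at 6327 and 6328 bp, so that the distance to the neighbouring Ighv1 gene differed by 1 bp between the copies. Ighv10-1 and Ighv10-3, the intact members, had no site within 10 kb. How alike the sequences at these places are was not tested, for want of a genome.

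Only 3 Igh sites overlapped a V segment gene itself. A YmA-ind site (113807688 to 113807987) overlapped 60 bp of Ighv2-7 at the gene's end away from the constant genes, the end where a V promoter lies. A YmA-ind site (114788180 to 114788479) overlapped 108 bp of Ighv1-26, and a CTD-ind site (115999853 to 116000152) overlapped 125 bp of Ighv1-85. In these latter cases the site lay at the gene's opposite end, where V segments carry the recombination signal. Other genes within 10 kb of these sites were Gm7003, typed as a V segment but outside the symbol rule, 4.63 kb from the site at Ighv2-7, and the non-coding gene Gm40899, 8.78 kb from the one at Ighv1-26. Near the site at Ighv1-85 lay the pseudogene Gm9260 at 6.44 kb and the non-coding gene Gm51964 at 7.33 kb. The 2 remaining sites of the array were YmA-ind. One (114064443 to 114064742) lay between Ighv14-3 and Ighv16-1, 4.32 and 4.24 kb from them, and the other (114182625 to 114182924) lay 5.91 kb from Ighv14-4 on the side away from the constant genes.

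Counted by V family, few of the Igh segments had a site near them. Over all genes of the annotation, 15.1% had a site inside or within 10 kb, and among Igh segments 20 of 215 did (9.30%), all of them V segments. By family these were 6 of 16 Ighv8 genes (37.5%), 8 of 92 Ighv1 genes (8.70%) and 1 of 11 Ighv2 genes (9.09%). Of the families with under 5 genes, Ighv10 and Ighv14 had 2 of 4 each and Ighv16 had 1 of 1. Ighv5 (21 genes), which with Ighv2 makes up most of the proximal V segments, had none, and neither did Ighv3 (8) and Ighv6 (7). Of the Igh segments typed as pseudogenes 8 of 73 had a site near, and of the others 12 of 142. Neighbouring segments can share a site, so they are not independent counts. Segment genes are also short (median 299 bp, against 6.00 kb for all genes), which leaves less room for a site inside.

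In the T-receptor alpha/delta array, 2 sites lay inside V segment genes that are copies of each other. The CTD-ind site at 53007796 to 53008095 lay wholly inside Trav6d-7, and the YmA-ind site at 53319008 to 53319307 overlapped Trav6n-7 by 277 bp. Both genes are 467 bp long, and the site centres lay 313 and 339 bp from their lower ends. The neighbours Trav5d-4 and Trav5n-4 were 5.71 and 5.74 kb from the sites. The d and n members of Trav are known to come from a large duplication within the array. The matching place in these copies thus carried sites of different class, and the placing of reads between them is uncertain. The third relative, Trav6-7-dv9, had its nearest site at 93.9 kb. A CTD-ind site lay 1.77 kb from Trav13d-2, whose n copy Trav13n-2 had its nearest site at 64.8 kb, and another CTD-ind site lay 2.29 kb from Trav17.

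The remaining 3 alpha/delta sites, all YmA-ind, lay in the delta part between Trdv4 and the J-alpha segments. One (54146453 to 54146752) was centred 494 bp outside Trdc, the constant gene of the delta chain, and 2.06 kb from Trdv5. The next (54152191 to 54152490) lay 2.66 kb from Traj61, the J-alpha pseudogene nearest to delta. The joining segment Trdj2 lay 9.77 kb from the site at Trdc. The other site (54108631 to 54108930) lay inside the non-coding gene Gm30275 and 4.69 kb from the diversity segment Trdd1. Of the segment genes chosen by symbol, the nearest to it was Trdv4, at 33.3 kb. The 8 J-alpha segments that had a site within 10 kb were those nearest to delta, Traj61 to Traj54. They make up 13.3% of the 60 Traj genes, near the 15.1% of all genes.

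Sites in the beta array lay between V segments, and some lay inside other annotated genes. The YmA-ind site at 40898402 to 40898701 lay inside Prss58, a gene of the trypsin-like protease family embedded in this array, and 6.67 kb from Trbv1. A YmA-ind site (41183158 to 41183457) lay between Trbv19 and Trbv20, 4.26 and 4.97 kb from them. The 1 YmA-dep site of the 5 arrays (41235420 to 41235719) lay 7.66 kb from Trbv26. A YmA-ind site (41253239 to 41253538) lay in the pseudogene Gm2719, 4.73 kb from the pseudogene Trbv27. The D, J and constant genes of beta had no site near: the nearest lay 280 kb from Trbd1.

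The site of the lambda array was YmA-ind (19202045 to 19202344) and lay 1.96 kb from Iglj2, between this joining segment with its constant gene Iglc2 and the V segment Iglv3, which was 39.0 kb away. In the gamma array the nearest site to any of the J and constant genes was 415 kb away, at Trgc4.

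**Figure D4:**
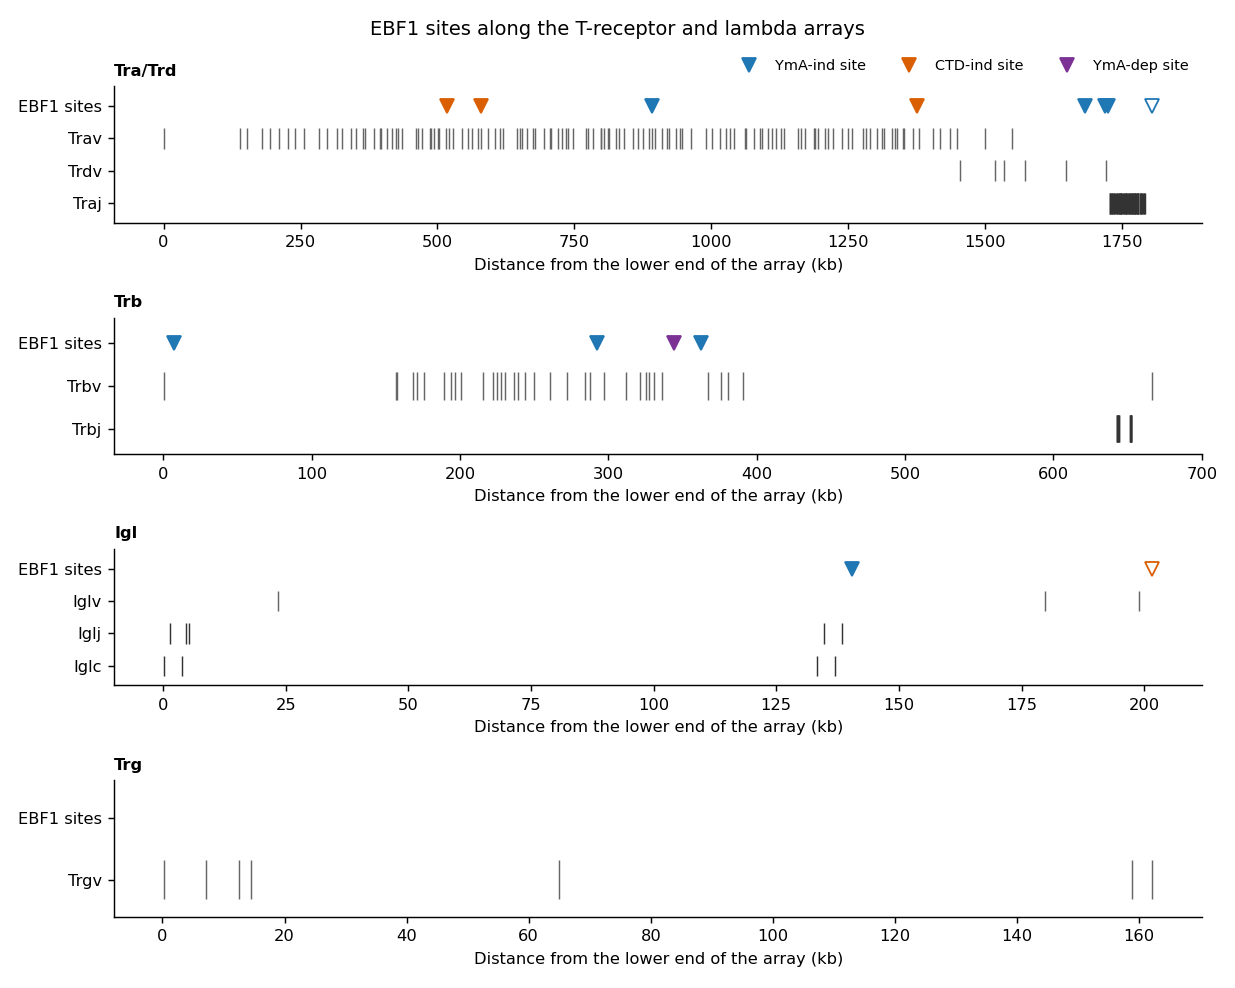
Segment genes (ticks, in rows by type) and EBF1 sites (triangles, coloured by class) of the Tra/Trd, Trb, Igl and Trg arrays, by distance in kb from the lower end of each array. Open triangles lie outside the array. In Tra/Trd 3 of 7 sites lie between Trdv4 and Traj61, 2 of them 2.06 kb from Trdv5 and 2.66 kb from Traj61, and Trg has no site.

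Just outside the arrays lay 5 more sites within 100 kb. Beyond Igha, on the side where the 3′ regulatory region of the heavy chain locus is known to lie, a YmA-dep site (113228220 to 113228519) stood at 27.8 kb and CTD-ind sites stood at 33.3 and 87.8 kb. The last was 2.95 kb from Tedc1. A CTD-ind site (19263274 to 19263573) lay 2.58 kb beyond Iglv2, the outermost V segment of lambda. A YmA-ind site (54232964 to 54233263) lay 8.92 kb beyond Trac, the constant gene of the alpha chain, and 2.37 kb from Dad1. The interval between Trac and Dad1 is known to hold the alpha-chain enhancer, which the gene table does not mark.

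Across the 5 arrays, 19 of the 26 sites lay more than 1 and up to 10 kb from the nearest segment gene. The offset of sites placed without regard to the segments was not computed, so these distances do not show avoidance of segments. The median offset from a site's centre to the nearest segment gene was 4.20 kb (95% interval of the median 2.06 to 5.79 kb), and 4.41 kb in Igh (0.0900 to 5.91 kb, n = 14 sites). In Igk it was 0.155 kb (0.107 to 1.20 kb). Within 1 kb of a segment lay 5 of the 26 sites (19.2%, 6.55 to 39.4%) and 33 of the 57 Igk sites (57.9%, 44.1 to 70.9%). These intervals do not overlap, but this holds only for the 5 arrays pooled. Taken singly, Igh (21.4%, 4.66 to 50.8%) and Tra/Trd (28.6%, 3.67 to 71.0%) had intervals that overlap that of Igk. The interval of the median offset in Igh also covers that of Igk. No test was made, since sites of 1 list are not replicates. Of the 479 segment genes, 49 had a site within 10 kb (10.2%, against 15.1% of all genes) and 5 within 1 kb (1.04%, against 8.80%), while 125 had one within 25 kb (26.1%, against 22.7%). By array the 10-kb share was 9.30% in Igh, 9.18% in Tra/Trd and 12.2% in Trb, and 0 of 7 genes in Trg had a site. In Igl it was higher, 5 of 12 genes (41.7%, 95% Clopper-Pearson interval 15.2 to 72.3%), and neighbouring genes there share a site. In Igk, 67 of 168 segment genes had one within 10 kb (39.9%). The segment genes of the 5 arrays are short (median 299 bp, against 6.00 kb for all genes). This leaves less room for a site inside, so the shares over all genes are not like for like.

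**Figure D5:**
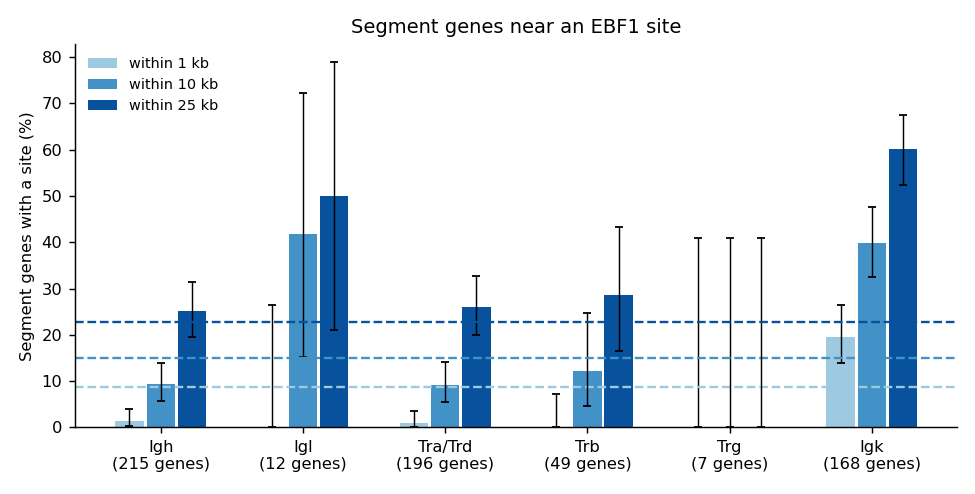
Share of segment genes of each array with an EBF1 site inside or within 1, 10 or 25 kb (bars, with 95% Clopper-Pearson intervals that treat genes as independent). Dashed lines give the shares over all genes, 8.80, 15.1 and 22.7%. At 1 kb and 10 kb Igh and Tra/Trd lie under their line and Igk above it. Igl, with 12 genes, lies above its line at 10 kb.

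Genes whose products act with these receptors were read from lists of partner chains, recombination factors and locus factors. All 6 partner chains of the pre-B and B-cell receptor had a site inside or within 10 kb, against 22.0% of protein-coding genes. The nearest site was CTD-ind in each case, a class that holds 34.0% of the whole list. The 6 are the surrogate light chain genes Igll1, Vpreb1 and Vpreb2, their relative Vpreb3, and Cd79a and Cd79b. Igll1, Vpreb1 and Vpreb2 all lie on chromosome 16 with 3 sites each within 10 kb. Whether they share sites was not examined, so they may not be independent counts. The list of 6, like the other lists, was chosen with earlier results of these data known. That all 6 had a site is therefore a description and not a test. Of 5 partner chains of the T-cell receptor, Cd3d and Cd3g shared a YmA-ind site, which lay inside Cd3d, while Cd3e, Cd247 and Ptcra had none. Of 12 recombination and end-joining genes, Rag2, Xrcc4 and Xrcc6 had a site and 9 did not, Rag1 and Dntt among them. That share is near the 22.0% of protein-coding genes. Of 6 factors tied to contraction or looping of the heavy chain locus, Pax5, Yy1, Ctcf and Ezh2 had a site, and Rad21 and Ikzf1 did not. The same 22.0% stands beside the counts of the T-cell receptor chains and of these factors, and lists this short were not tested against it.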

How the data were processed

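The deposited file gives, per the file headers, a chromosome, a start, an end, a name and a class for each EBF1 site. Its positions are in bp, with no score. Bowtie2, SAMtools and deepTools are the tools, and GRCm38 or mm10 the build, named per the submitters' processing notes. How peaks were called and how reads with several matches were treated is not stated there, nor in other sources used here.

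Segment genes came from the RefSeq table of GRCm38.p6, without 402 of 49997 rows whose order placed them on scaffolds or outside the chromosomes. The table gives no strand. A chromosome's density was taken between its outermost genes. Positions are 1-based, and a bp distance was cut to whole bases. Offsets run from a site's centre to the nearest end of a segment gene. Toward and away were set by the position of the J and constant segments. Promoter sequences, with strand, are RefSeq's, and local alignments used Biopython 1.88. No genome was used, so motifs were searched in promoter windows in place of all sites. Confidence intervals are exact (SciPy 1.17.1). The distance from a site to a segment gene, and the count of genes near a site, were tested on planted sites.

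Named were every site by its nearest segment gene, segment genes within 1 kb, the 5 nearest of a V family with more near sites, other genes within 10 kb of a site in a span, list genes near a site and the 3 longest Igh gaps; list genes without a site were named after their values were seen. The members, lists and distances were chosen with earlier results of these data known. The E-box and octamer searches, the comparison of promoter windows, the sides of families and the genes outside the rule were chosen after the data were seen.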

Additional observations from a re-analysis of the deposited data

How the results depend on the processing

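Leaving out 16 alternatives that were 0 both ways (Trg, V families without a site and the YmA-dep share of Igh), 47 of 71 alternative values, for 28 results, stayed within their interval or within 1.5 times the main count and 24 moved. Counts of sites in Igh, Tra/Trd, Trb and Trg and over the 5 arrays did not move by that measure with any overlap in place of centres, spans of V segments, spans without pseudogenes or spans widened by 100 kb; Igl went from 1 site to 2 with the widened span. Class shares were rerun for Igh and for the 5 arrays together. They stayed within the intervals of the main shares, but with spans widened by 100 kb the YmA-dep share went from 0 to 5.88% in Igh and from 3.85 to 6.45% over the 5 arrays. Median offsets in Igh and over the 5 arrays, and density ratios against all chromosomes, also stayed within their intervals. The counts of segment genes near a site rest on the distance, as their construction implies. Within 1, 5 and 25 kb, in place of 10 kb, they were 3, 9 and 54 (main 20) in Igh, 2, 10 and 51 (main 18) in Tra/Trd, 0, 3 and 14 (main 6) in Trb, and 5, 25 and 125 (main 49) in all. In Igl they were 0 and 3 (main 5) within 1 and 5 kb. By family, Ighv1 had 2, 2 and 29 (main 8), and Ighv8 had 0 and 2 (main 6) within 1 and 5 kb and again 6 within 25 kb. At 25 kb Ighv2 had 2, Ighv3 had 2, Ighv5 had 3 and Ighv6 had 1. The EBF motif over all sites, planned, was not run for want of a genome. Depth is unknown, so the lack of a site at a segment does not show that EBF1 was absent there.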
